A study of Mus musculus with 3 samples.

Results

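The Hox genes of resting NK cells (NKC) were examined for Runx3 binding and for monomethylation of histone H3 at lysine 4 (H3K4me1). All protein-coding genes named Hoxa, Hoxb, Hoxc or Hoxd with a number were taken from the GENCODE M1 annotation of the mouse genome (mm9), which gave 39 genes of 22350 protein-coding genes on 20 chromosomes. There were 11 Hoxa genes on chromosome 6, 10 Hoxb genes on chromosome 11, 9 Hoxc genes on chromosome 15 and 9 Hoxd genes on chromosome 2. Around each gene a window was drawn from 5 kb before to 5 kb after it, and any Runx3 or H3K4me1 region sharing at least 1 bp with the window was counted.

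The series holds 3 ChIP-seq samples from splenic NKC of ICR mice, 1 each for a home-made Runx3 antibody, an H3K4me1 antibody and non-immune rabbit serum (NIS), the control against which regions were called. All came from freshly isolated cells with no cytokine treatment, which were fixed in 1% formaldehyde and frozen. No age is stated, and the lists are an average over the sorted population. The labels give NKp46 as the sorting marker, whereas the study's methods give DX5. The processed data used here are lists of positions, 15524 Runx3-bound regions (peaks) and 49902 H3K4me1 regions, without scores, so neither signal strength nor depth at a region is known. Each antibody had 1 list. No spread between replicates and no test could therefore be computed, every comparison below is a description, and the 95% Wilson intervals cover counting only, although neighbouring Hox genes share regions. All 8 NKC marker genes counted, among them Ncr1 (NKp46), Itga2 (DX5) and Eomes, had both a Runx3 peak and H3K4me1 in their window. Markers of other cells were not free of the marks. Over all protein-coding genes, H3K4me1 was present at 67.7% and Runx3 at 39.8%. H3K4me1 was present at 3 of 4 T cell, 3 of 4 B cell and 3 of 4 myeloid marker genes, and Runx3 at 1 of 4 (Cd3e), 2 of 4 (Cd79a and Pax5) and 1 of 4 (Itgam, with 4 peaks). Cd8a, Ms4a1 and Lyz2 had neither mark.

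Hox genes encode homeodomain transcription factors that give cells their position along the body axis of the embryo. They lie in clusters that arose by duplication, so that genes at the same place in different clusters are related and form a numbered paralogue group. Low group numbers lie at the 3′ end of a cluster and are used towards the head, high numbers lie at the 5′ end and are used towards the tail and in the ends of limbs. In blood, Hox genes such as Hoxa9, Hoxa10 and Hoxb4 are best known from stem and progenitor cells, where trithorax proteins such as Kmt2a keep them active and polycomb proteins silence them. H3K4me1 is found at enhancers and beside active promoters, and Runx3 is a RUNX-family factor of cytotoxic lymphocytes.

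H3K4me1 regions were listed near most Hox genes. The clusters held 7 Runx3 peaks, which per length is more than over the chromosomes (14.2 against 5.88 per Mb). Of 39 Hox genes, 35 (89.7%, interval 76.4 to 95.9%) had an H3K4me1 region in the window, beside 67.7% of all protein-coding genes. Runx3 peaks were counted at 11 Hox genes (28.2%, interval 16.5 to 43.8%), beside 39.8% of all protein-coding genes, a value inside the interval. Each of these 11 genes also had H3K4me1, as did 8848 of the 8889 protein-coding genes with a Runx3 peak. Among the genes with H3K4me1, Runx3 was present at 11 of 35 Hox genes (31.4%, interval 18.6 to 48.0%), beside 58.4% of all such genes. The 4 genes with neither mark were Hoxc11, Hoxc12, Hoxc13 and Hoxd4.

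Windows of Hox genes are short, with a median of 14.1 kb against 25.4 kb for all protein-coding genes. The order of the Runx3 shares depended on the window. With no flank the share was 5.13% for Hox genes and 33.6% for all genes, and with 2 kb it was 20.5% against 36.5%. With 10 kb on either side the share was 41.0% for Hox genes and 44.3% for all genes, and with 20 kb it was 59.0% against 51.0%. The H3K4me1 shares came closer with shorter flanks, at 66.7% against 63.3% with no flank and 74.4% against 65.4% with 2 kb. Per length, the clusters held more Runx3 peaks than the chromosomes as a whole. The 4 clusters together, 492.0 kb from the lowest start to the highest end of their Hox genes, held 7 peaks or 14.2 per Mb, against 5.88 per Mb over the 20 chromosomes and 10 per Mb over the 100 kb on each side of each cluster. For H3K4me1 the values were 47 regions or 95.5 per Mb in the clusters, 31.2 per Mb beside them and 18.9 per Mb over the chromosomes. Pooled over the clusters both kinds of region were thus denser inside than around them, but for Runx3 this did not hold for each cluster. Hoxb had 11.5 peaks per Mb inside and 40 per Mb in the 100 kb beyond Hoxb1, and Hoxa had 19 per Mb inside and 20 per Mb beyond Hoxa13. H3K4me1 regions covered 21.7% of the cluster bases, 6.58% of the bases beside the clusters and 4.83% of the chromosomes, and Runx3 peaks covered 1.21%, 0.756% and 0.511%. Base composition differed along with these shares. The clusters had a GC content of 48.9 to 50% and 2.09 to 2.98 CpG per 100 bp, against 41.8% and 0.834 over the chromosomes, and the part of composition in the result was not tested.

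**Figure D1:**
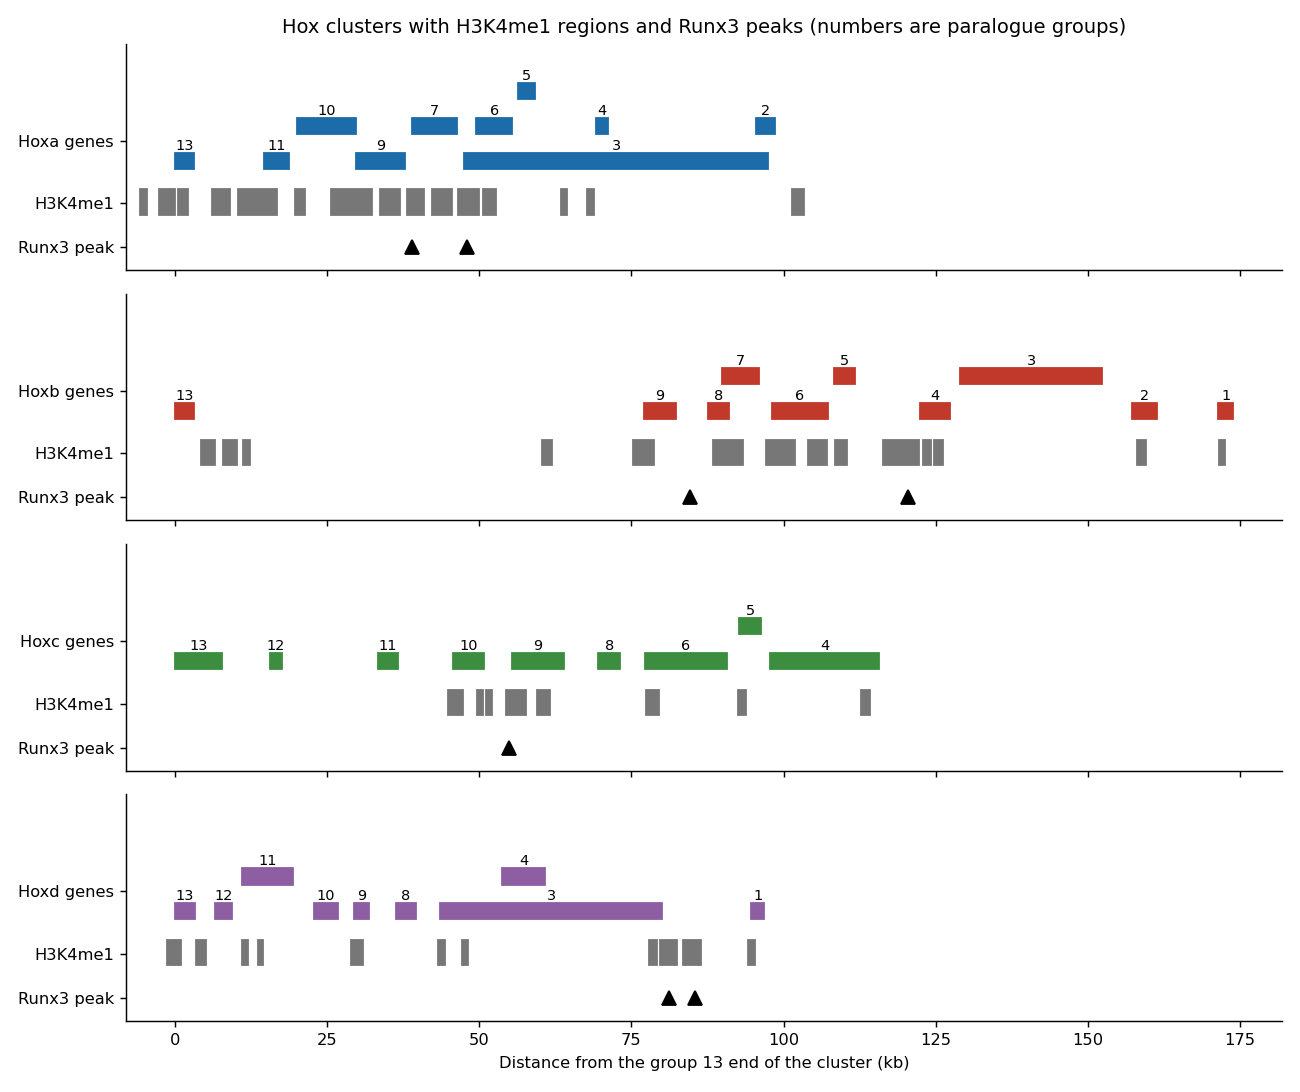
The 4 Hox clusters are drawn from their group 13 end, with distance in kb on the horizontal axis; coloured bars are the genes shown with their paralogue group, grey bars are the H3K4me1 regions within 5 kb of a cluster, and triangles are Runx3 peaks. H3K4me1 lies closely over Hoxa7 to Hoxa13 and Hoxb4 to Hoxb9, and 7 Runx3 peaks are present.

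The clusters differed in how much of them was marked. Hoxa (chromosome 6) had 36.7% of its 105.5 kb in H3K4me1, in 14 regions. Hoxb (chr11:96055630-96229570) had 21.1% of 173.9 kb, Hoxd (chr2:74506367-74603200) 17.0% of 96.83 kb and Hoxc (chr15:102751534-102867274) 12.7% of 115.7 kb. When the chromosomes were cut into pieces as long as each cluster, 1.89% of pieces had as much H3K4me1 as Hoxa or more, 5.98% as much as Hoxb, 9.37% as much as Hoxd and 13.4% as much as Hoxc. Pieces with at least as many Runx3 peaks as the cluster of the same length were more frequent, at 15.3% for Hoxa, 23.2% for Hoxb, 29.2% for Hoxc and 14.1% for Hoxd. Hoxa was thus the most fully marked cluster, and no cluster stood as far out in Runx3 peaks. Hoxb holds a long stretch without Hox genes between Hoxb13 and Hoxb9. From Hoxb9 to Hoxb1 the share was 28.4%, and before Hoxb9 it was 12.0%.

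In the surrounding 100 kb the clusters also differed. Beyond Hoxa13, towards Evx1, 18.2% of bases were in H3K4me1 and there were 2 Runx3 peaks, against 4.96% and 1 peak on the side towards Skap2. Beyond Hoxb1, towards Skap1, the values were 20.7% and 4 peaks, whereas beyond Hoxb13, towards Ttll6, no region of either kind was listed. Both sides of Hoxc were listed with 0 regions. Gm17649 lies 0.283 kb beyond Hoxc13, Calcoco1 follows at 199.0 kb, and Smug1 lies 116.0 kb beyond Hoxc4. Hoxd had 7.48% and 1 peak on the side of Evx2 and 1.25% with 0 peaks on the side of Mtx2. Evx2, the homeobox gene that adjoins Hoxd13, had this Runx3 peak and 1 H3K4me1 region in its window. Evx1, its counterpart beyond Hoxa13, had 0 peaks and 4 regions.

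**Figure D2:**
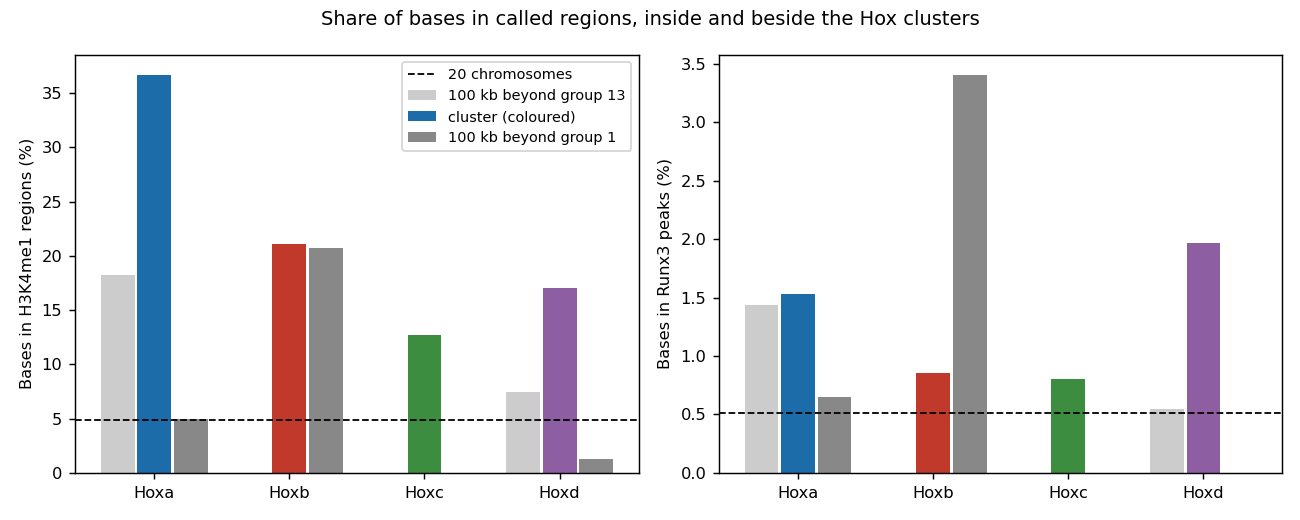
Bars give the percentage of bases in H3K4me1 regions (left) and in Runx3 peaks (right) for each cluster (coloured) and for the 100 kb beyond its group 13 end (light grey) and its group 1 end (dark grey; for Hoxc beyond Hoxc4); the dashed line is the value over the 20 chromosomes, and a missing bar is 0. H3K4me1 in Hoxa reaches 36.7%, both sides of Hoxc are at 0, and Runx3 bases are highest beyond Hoxb1 at 3.41%.

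The 7 Runx3 peaks were from 657 to 1072 bp wide, with a median of 839 bp against 825 bp for all peaks. They gave 13 pairs of a gene and a peak, because neighbouring windows overlap. The windows of 35 of the 39 genes overlapped that of another Hox gene, so counts over genes are not counts of separate events. Hoxa7 and Hoxd3 had 2 peaks each, and the other 9 genes had 1. Of the 7 peaks, 6 (85.7%, interval 48.7 to 97.4%) overlapped H3K4me1, beside 95.7% of all Runx3 peaks. The RUNX consensus, which is TGTGGT on either strand with C allowed for T at the third and at the last base, was present in 7 of 7 peaks (interval 64.6 to 100%), beside 93.3% of all peaks. In the central 200 bp it was present in 6 of 7 peaks against 69.2% of all peaks. Consensus sequences for ETS factors (GGAAGT after an A or a C) and for SP1 (GGGCGG), likewise searched on both strands, were each found in 3 of 7 peaks, against 41.8% and 41.9% of all peaks. The peaks had 2.38 to 5.68 CpG per 100 bp, each above the median of 1.74 over all Runx3 peaks, although 5 of the 7 lay within the interquartile range of all peaks (1.01 to 5.45).

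The stretches around the RUNX match nearest to each peak's midpoint are printed to show what the bound sequence holds. Bases come from mm9, plus strand, 5′ to 3′, and capitals mark the RUNX consensus on either strand.

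Hoxa3 peak, chr6:52162798-52162997: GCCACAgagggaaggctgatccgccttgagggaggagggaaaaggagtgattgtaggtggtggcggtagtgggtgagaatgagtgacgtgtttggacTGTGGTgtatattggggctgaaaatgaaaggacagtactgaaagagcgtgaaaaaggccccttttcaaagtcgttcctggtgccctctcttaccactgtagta

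Hoxa7 peak, chr6:52171826-52171855: cttggcactgcaGCCGCAgctgctctggcc

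Hoxb8 peak, chr11:96140207-96140406: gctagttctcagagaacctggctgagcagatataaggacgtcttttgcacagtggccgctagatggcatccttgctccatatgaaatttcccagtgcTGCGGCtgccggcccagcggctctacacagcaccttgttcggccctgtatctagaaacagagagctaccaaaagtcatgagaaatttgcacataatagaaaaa

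Hoxb4 peak, chr11:96175994-96176193: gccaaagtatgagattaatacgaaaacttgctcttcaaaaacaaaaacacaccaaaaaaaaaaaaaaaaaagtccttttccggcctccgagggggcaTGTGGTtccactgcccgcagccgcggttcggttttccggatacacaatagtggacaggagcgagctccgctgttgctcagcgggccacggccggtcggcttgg

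Hoxc9 peak, chr15:102806283-102806482: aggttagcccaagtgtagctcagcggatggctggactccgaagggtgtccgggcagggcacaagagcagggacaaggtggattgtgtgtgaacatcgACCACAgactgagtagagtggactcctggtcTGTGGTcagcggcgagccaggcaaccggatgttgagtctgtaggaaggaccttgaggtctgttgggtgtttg

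Hoxd3 peak nearer to the gene, chr2:74587328-74587527: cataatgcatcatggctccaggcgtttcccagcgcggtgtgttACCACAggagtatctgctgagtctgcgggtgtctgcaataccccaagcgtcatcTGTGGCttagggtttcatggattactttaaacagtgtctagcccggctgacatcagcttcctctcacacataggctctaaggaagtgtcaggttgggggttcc

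Hoxd3 peak farther from the gene, chr2:74591395-74591594: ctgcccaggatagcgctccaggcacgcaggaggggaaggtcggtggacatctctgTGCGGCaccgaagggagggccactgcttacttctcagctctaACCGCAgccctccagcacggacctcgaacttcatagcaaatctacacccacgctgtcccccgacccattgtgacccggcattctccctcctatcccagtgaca

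In the Hoxa cluster both Runx3 peaks lay over the start of a Hox gene, in H3K4me1. The peak at Hoxa7, a gene of the middle of the cluster, spanned 657 bp (chr6:52171532-52172188), and its midpoint was 7 bp from an annotated start. It covered coding and UTR sequence of Hoxa7 and lay in an H3K4me1 region of 2843 bp. Both of its RUNX matches fell within the transcribed part of Hoxa7, which is why only 30 bases are shown. The peak at Hoxa3, a gene needed for the thymus and parathyroid glands, spanned 962 bp (chr6:52162433-52163394) with its midpoint 153 bp from the nearest Hoxa3 start. It covered coding and UTR exons of Hoxa3 and an exon of 2700086A05Rik, a non-coding RNA, and held 3 RUNX matches and 1 ETS match within an H3K4me1 region of 3543 bp. The longest Hoxa3 transcripts start between Hoxa6 and Hoxa7, so this peak also fell in the windows of those genes.

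Both Hoxb peaks lay between genes. The peak upstream of Hoxb8 spanned 715 bp (chr11:96139896-96140610), 2.97 kb from the Hoxb8 start, and was the only one of the 7 without H3K4me1. The nearest regions lay 5.62 kb to the left and 3.36 kb to the right. It also had the lowest GC content of the 7, 40.4%, and the fewest RUNX matches, 1. It reached the windows of Hoxb7, Hoxb8 and Hoxb9, so that 3 of the 4 Hoxb genes counted for Runx3 rest on a single peak outside H3K4me1. The peak upstream of Hoxb4, a gene that expands blood stem cells when overexpressed, spanned 774 bp (chr11:96175682-96176455), 1.93 kb from the start, in an H3K4me1 region of 6040 bp.

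The Hoxc peak spanned 926 bp (chr15:102805930-102806855), 478 bp from the start of Hoxc9, a gene of thoracic motor neurons. It overlapped an H3K4me1 region of 3324 bp, lay in an intron of the non-coding transcript Gm20398 and held 5 RUNX matches, the most of the 7. Hoxc10, a gene of lumbar motor neurons, shared this peak. The Hoxd peaks both lay past the 3′ end of Hoxd3, over exons of the non-coding transcripts 6720416L17Rik and Gm14424. They spanned 839 bp (chr2:74587051-74587889) and 1072 bp (chr2:74591280-74592351), held 4 RUNX matches each and lay in H3K4me1 regions of 2717 and 2849 bp. The farther one was the only peak of the 7 without a RUNX match in its central 200 bp. At the limit of the window, this peak was 4.95 kb from Hoxd3 and the peak upstream of Hoxb8 was 4.96 kb from Hoxb7, both just inside. The nearest cases outside were Hoxa5, 7.85 kb from the Hoxa3 peak, and Hoxb3, 8.19 kb from the Hoxb4 peak.

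**Figure D3:**
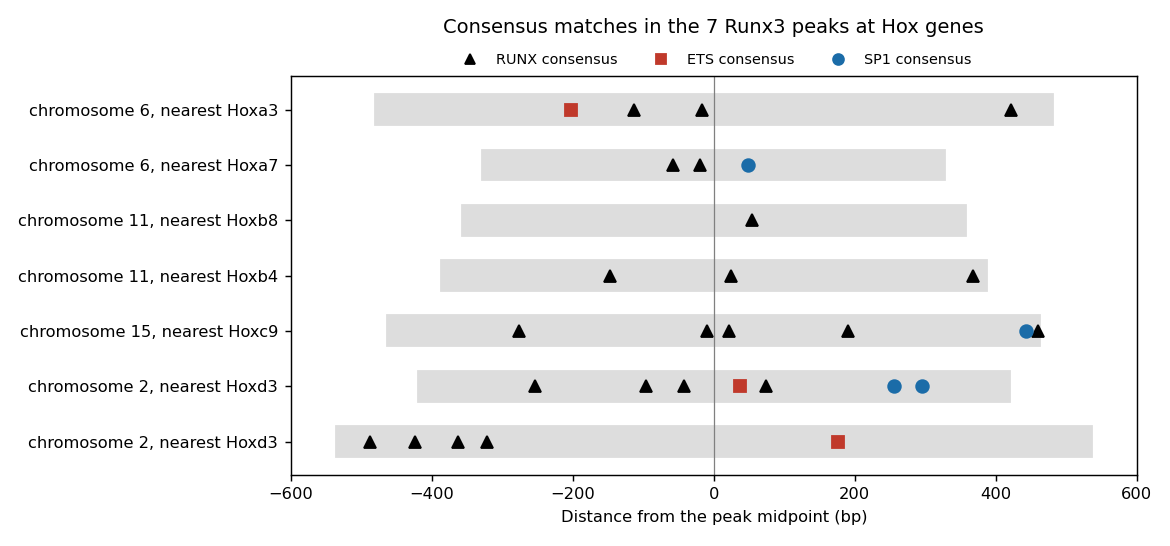
Each grey bar is 1 of the 7 Runx3 peaks in Hox windows, aligned at its midpoint with distance in bp on the horizontal axis; triangles, squares and circles mark RUNX, ETS and SP1 consensus matches on either strand. Every peak holds at least 1 RUNX match, and in the lowest bar, the farther Hoxd3 peak, all 4 lie more than 300 bp from the midpoint.

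Few Hox starts carried Runx3. A start under 1 kb from a Runx3 midpoint was present at 3 of 39 genes (7.69%, interval 2.65 to 20.3%), namely Hoxa3, Hoxa7 and Hoxc9, beside 27.2% of all protein-coding genes. A start inside an H3K4me1 region was present at 23 of 39 (59.0%, interval 43.4 to 72.9%), beside 43.6% of all genes. H3K4me1 can spare the start itself and flank it. In these lists that arrangement was less frequent than a start inside a region, both at Hox genes and over all genes. Of 84 annotated Hox starts, 42 (50%) lay inside a region and 3 (3.57%, at Hoxa13 and Hoxb4) between regions within 1 kb on both sides, against 34.1% and 14.4% of all 69930 starts of protein-coding genes. A region on 1 side only was seen at 11 starts (13.1% against 8.05%), and 28 (33.3% against 43.4%) had none within 1 kb. Starts of the same gene are close together and are not separate observations.

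The share of each window in H3K4me1 varied widely among the genes. Its median was 15.8% over the 39 Hox genes (interquartile range 9.56 to 39.2%) and 8.01% over all genes (0.0 to 21.0%). Taken once per base, the Hox windows had 22.7% of their 455.4 kb in H3K4me1 and 1.08% in Runx3 peaks, against 8.71% and 0.915% for the windows of all protein-coding genes. Hoxa7 and the Hoxa genes of higher number were the most covered. Hoxa7 had 77.2% of its window in H3K4me1, a value at or above that of 99.2% of all genes. Hoxa9, which sustains blood progenitors and drives leukaemia when overactive, had 74.7%. Hoxa11, a gene of the forearm and kidney, had 57.1%, Hoxa10 56.5% and Hoxa13, a gene of digits and the genital tract, 53.3%. These values ranked at or above those of at least 95.5% of genes. Windows were not matched for length in this ranking, and neighbouring Hox windows share regions. From Hoxa7 to Hoxa13, a stretch chosen after its values were seen, 62.5% of 46.38 kb was in H3K4me1 with 1 Runx3 peak, at Hoxa7. The separate H3K4me1 regions over Hoxa9 to Hoxa13 held no Runx3 peak. At the 14.2 peaks per Mb of the clusters together, few would be counted in a stretch this short. Hoxa9 was counted for Runx3 only through the peak at Hoxa7, whose midpoint is 4.29 kb from the nearest Hoxa9 start.

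In Hoxb the marked part was the middle of the cluster. Hoxb7 had 55.3% of its window in H3K4me1, Hoxb4 52.0% and Hoxb6 51.4%. Hoxb5 followed with 40.0% and Hoxb8 with 37.5%, and Hoxb9 had 22.7%. From Hoxb4 to Hoxb9, again chosen after the values were seen, 49.8% of 50.18 kb was in H3K4me1 with both Runx3 peaks. The stretch past Hoxb4 to Hoxb1 had 5.3% and 0 peaks. The genes there, of which Hoxb1 and Hoxb2 pattern the hindbrain, had 7.76% (Hoxb1), 10.7% (Hoxb2) and 5.41% (Hoxb3). Hoxb13, a prostate gene that stands apart from the rest, had 18.6%, and its nearest Runx3 midpoint was 84.6 kb away.

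The Hoxc and Hoxd clusters were marked in patches. In Hoxc, Hoxc10 had 38.4% and Hoxc9 36.5%, whereas Hoxc4, Hoxc5, Hoxc6 and Hoxc8 had 5.22 to 14.7%. The 44.9 kb from Hoxc13, a hair gene, past Hoxc12 and Hoxc11 held no H3K4me1 and no Runx3. In Hoxd the highest values were at the group 13 end, with 28.5% at Hoxd13 and 27.1% at Hoxd12, both genes of the digits. Hoxd3 had 16.3% and its neighbour Hoxd4 none. The other Hoxd genes lay between 8.65 and 14.5%. The share of the window at the group 13 gene was thus different in each cluster, with 53.3% at Hoxa13, 28.5% at Hoxd13, 18.6% at Hoxb13 and 0.0% at Hoxc13. Hoxa13 and Hoxd13 had a start inside H3K4me1. At Hoxb13 the regions lay past the end of the gene, and the nearest was 4.32 kb from its start.

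**Figure D4:**
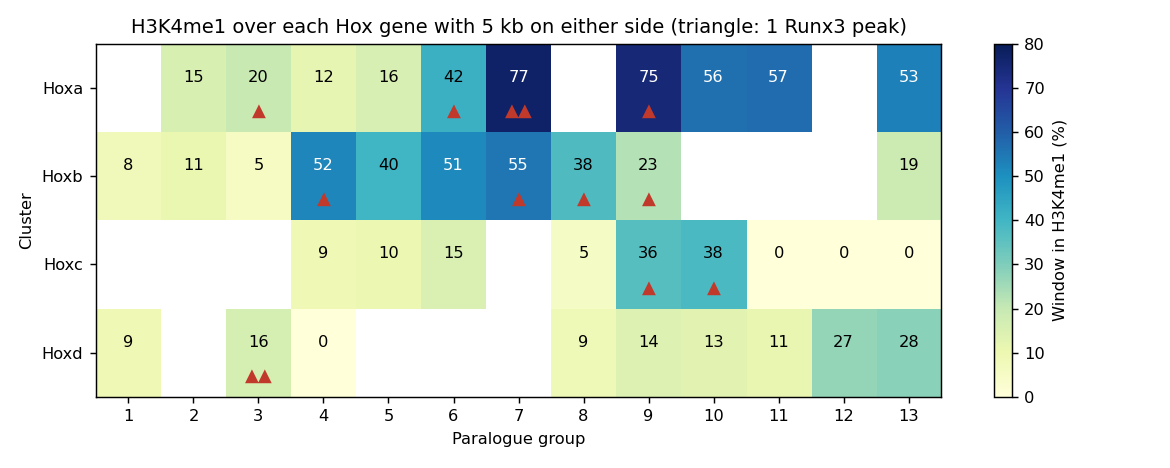
Each cell is a Hox gene placed by cluster (vertical axis) and paralogue group (horizontal axis), its colour and number give the percentage of its window in H3K4me1, each triangle is 1 Runx3 peak, and white cells have no gene or are not shown. Values are highest at Hoxa7 (77.2%) and Hoxa9 (74.7%), and triangles occur in groups 3, 4 and 6 to 10.

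By paralogue group, no single order held in all clusters. The median share of the window was 37.5% for groups 5 to 8 (11 genes), 24.9% for groups 9 to 13 (16 genes) and 11.1% for groups 1 to 4 (12 genes), but each class spanned a wide range, from 5.22 to 77.2%, 0.0 to 74.7% and 0.0 to 52.0%. These medians mixed clusters that differed in order. Groups 9 to 13 had the higher median in Hoxa, 56.8% (53.3 to 74.7%) against 41.5% for groups 5 to 8, and in Hoxd, 14.5% against 8.65% for the single gene there. Groups 5 to 8 had the higher median in Hoxb, 45.7% against 20.7%, and in Hoxc, 10.1% against 0.0% (0.0 to 38.4%). Runx3 was counted at 3 of 12, 4 of 11 and 4 of 16 genes of the low, middle and high groups, beside 39.8% of all protein-coding genes. Group 7 had Runx3 at both members, and group 9 at 3 of 4. These are not separate events, because Hoxa7 and Hoxa9 share a peak and Hoxb7 and Hoxb9 share another. No member of groups 1, 2, 5, 11, 12 or 13 had a peak, which included all 4 genes of group 13.

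Gaps without H3K4me1 were present in each cluster, and gap lengths over the chromosomes are not given for comparison. Measured within the cluster limits, the longest were 48.0 kb in Hoxb, between Hoxb13 and Hoxb9 and without a Hox gene, 44.9 kb in Hoxc, 32.6 kb in Hoxa and 29.7 kb in Hoxd. The Hoxc gap was cut at the cluster limit, beyond which no H3K4me1 region was listed for another 100 kb, so that it is longer than measured. The Hoxa gap held Hoxa2 and Hoxa4 whole, and the Hoxd gap held Hoxd4. The next in Hoxb, 31.8 kb, held Hoxb3 and the start of Hoxb2. The 2 longest gaps of each cluster held 0 Runx3 peaks. This adds little, because gaps were picked for lacking H3K4me1 and 95.7% of all Runx3 peaks overlap H3K4me1.

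The 47 H3K4me1 regions in Hox windows were of ordinary width, with a median of 1867 bp and a range of 904 to 6737 bp against a median of 1801 bp for all regions. A Runx3 peak was found in 6 of 47 (12.8%, interval 5.98 to 25.2%), beside 28.6% of all H3K4me1 regions. Wide regions hold a peak more often, so the share was also read by width. With the rate of each genome-wide width class (5 classes of nearly equal number), 13.6 of the 47 regions (29.0%) would hold a peak. In the 3 narrower classes the peak-holding Hox regions were 0 of 13, 0 of 6 and 0 of 8, against 14.8%, 17.5% and 21.0% of all regions. In the wider ones it was 3 of 10 and 3 of 10, against 31.9% and 57.9% of all regions of the same width.

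The Hox clusters also encode microRNAs of the miR-10 and miR-196 families, which share a seed within each family and target Hox transcripts among others. The mature sequences, from RefSeq (GRCm38.p6), are shown with bases 2 to 8, the seed, in capitals, since both families have 1 copy beside a Runx3 peak and others without.

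miR-10a-5p: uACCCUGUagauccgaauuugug

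miR-10b-5p: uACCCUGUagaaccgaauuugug

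miR-196a-5p: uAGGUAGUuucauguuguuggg

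miR-196b-5p: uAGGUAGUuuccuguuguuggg

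Mir10a (chr11:96178479-96178588) lies 2.41 kb from the midpoint of the Hoxb4 peak and had 3 H3K4me1 regions within 5 kb. Mir10b (chr2:74564127-74564194), which encodes the same seed within the annotated extent of Hoxd4, had no region of either kind. Its window lies inside that of Hoxd4, so the 2 empty windows are not separate observations. Mir196a-2 (chr15:102803772-102803881) lies 2.62 kb from the Hoxc9 peak, with 4 H3K4me1 regions. Mir196a-1 (chr11:96126478-96126579) had 0 peaks and 1 region. Mir196b (chr6:52180080-52180164), near Hoxa9, had 0 peaks and a start inside H3K4me1. Copies with the same seed thus differed in what was listed beside them. This is a description of a few copies, and no share over all microRNA genes is given for comparison.

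The promoters of the Hox genes, from 250 bp before to 50 bp after the outermost start, were searched for the same consensus sequences. RUNX was found in 14 of 39 (35.9%, against 45.3% of all protein-coding promoters), ETS in 2 of 39 (5.13% against 16.1%) and SP1 in 16 of 39 (41.0% against 43.5%). A match is a description of the letters in the window and not a binding site.

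Genes that work with or upstream of Hox genes were counted in the same way. The TALE cofactors, homeodomain proteins that bind DNA together with Hox proteins, had Runx3 at 5 of 11 genes and H3K4me1 at 11 of 11. Meis1, the partner of Hoxa9 in progenitors and leukaemia, had 3 Runx3 peaks, and Pbx4, Pknox1 and Tgif1 had 2 each. On the trithorax side, which maintains Hox expression, Runx3 was present at 7 of 10 genes and H3K4me1 at 10 of 10. Dot1l, a histone H3 lysine methyltransferase, had 4 peaks, Men1 (menin) 2 and Wdr5 2. On the polycomb side Runx3 was present at 8 of 15 and H3K4me1 at 15 of 15. Jarid2, a polycomb cofactor, had 4 peaks, and Cbx7, Pcgf2 and Phc2 had 3 each. For all of these lists the shares stood above the background of 39.8% and 67.7%, with intervals that held 39.8% for the TALE, trithorax and polycomb lists.

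Other homeobox genes were divided. Runx3 was present at 6 of 7 genes of the haematopoietic list (85.7%, interval 48.7 to 97.4%), among them Zfhx3 with 4 peaks and Hhex, Zeb1 and Zeb2 with 3. The member without a peak was Lmo2, a LIM-only factor that has no homeobox. It was present at 1 of 32 developmental homeobox genes of other families such as Dlx, Irx and Nkx (3.12%, interval 0.554 to 15.7%), namely Lhx9, although 21 of these 32 (65.6%, interval 48.3 to 79.6%) had H3K4me1. Cdx and ParaHox genes, close relatives of the Hox genes and in the case of Cdx their upstream activators, had Runx3 at 0 of 6 (interval 0.0 to 39%) and H3K4me1 at 2 of 6, with Cdx1, Cdx2, Cdx4 and Pdx1 free of both. The Hox value of 28.2% lay between those of the haematopoietic and the developmental lists, and the intervals of the Hox genes and the developmental list did not overlap. As Hox genes share peaks and the lists were chosen with earlier results known, this is a description of the lists. Window lengths were not matched between lists, and Zfhx3, Zeb1 and Zeb2 are long genes. With no flank the Hox share was 5.13%, and the other lists were not recounted at that setting.

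**Figure D5:**
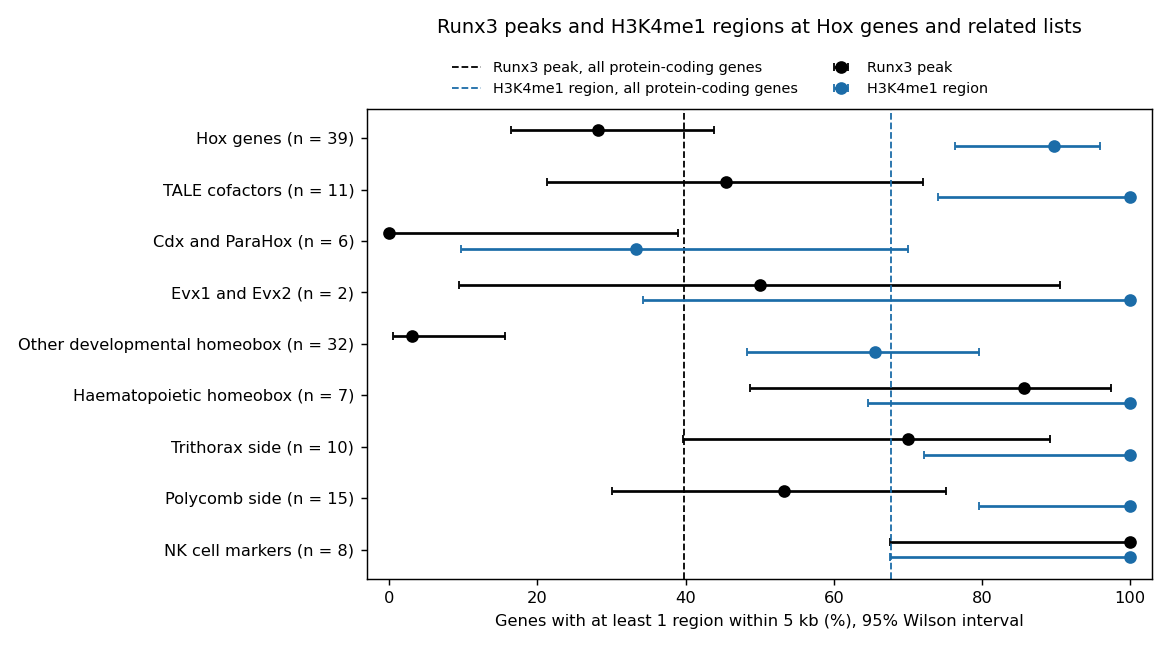
Points give the percentage of genes in each list with a Runx3 peak (black) or an H3K4me1 region (blue) within 5 kb, bars are 95% Wilson intervals, and dashed lines are the values over all protein-coding genes (39.8% and 67.7%). Hox genes are at 28.2% and 89.7%, and the other developmental homeobox genes at 3.12% and 65.6%.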

How the data were processed

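Chromatin of splenic NKC was precipitated for Runx3 or H3K4me1, with NIS as control. According to the study's methods and the labels, the authors aligned reads of 40 bp from fragments of about 300 bp to mm9 with ELAND, kept unique alignments, joined the reads of their biological repeats and called regions with MACS against NIS, scaling the larger library to the smaller. CASAVA 1.7 is named in the submitters' processing notes. The deposited files hold region coordinates only, with neither score nor count, and the lists do not show which libraries entered them. Depth per region is therefore unknown, and local read depth can decide whether a region was called.

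Regions were counted over GENCODE M1 genes with Python 3.11.15 and NumPy 2.4.6, with 1-based mm9 coordinates. Hoxa3 has 2 gene entries, which were joined. Clusters run from the lowest start to the highest end of their Hox genes. Motifs were searched in the mm9 sequence. Kmt2a, Kmt2c and Kmt2d were matched through their older symbols Mll1, Mll3 and Mll2, and Trac among the T cell markers was not matched. Counting was tested on simulated regions. Hox genes with Runx3 and the 20 with the most H3K4me1 bases were to be named, as were the 3 members of each related list with the most peaks (members tied with the third are named too), and other Hox genes are named to account for the members. For 1 Hox gene, which is included in the counts, single values are not reported here. The members and lists were chosen with earlier results of these data known. Alternatives changed the flank, overlap rule, minimum width, cluster limits, start set and joining of regions.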

Additional observations from a re-analysis of the deposited data

How the results depend on the processing

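For the 11 results there were 52 alternatives, of which 12 were added once the data had been seen. In 40 of them the value moved by less than its counting interval (shares of bases counted per 1 kb) or, for counts, by less than 1.5 times. The share of Hox genes with Runx3 was 5.13% with no flank (33.6% of all genes), 59.0% with 20 kb (51.0% of all genes, the only alternative in which Hox genes were above) and 15.4% with regions wider than the median (25.3%). The share with H3K4me1 was 66.7% with no flank (63.3%), 74.4% with 2 kb (65.4%), 61.5% with wide regions (53.3%) and 96.7% without Hoxc. With wide regions the clusters held 4 Runx3 peaks, 25 H3K4me1 regions and 16.1% of bases in H3K4me1, and 41.0% of genes had a start inside H3K4me1 (27.2% of all genes). With 50 kb added to the clusters the share of bases was 14%. Fewer or narrower regions and wider limits change these values by construction. Without scores a stricter peak threshold could be replaced only by width. No paired analysis was possible because each antibody had 1 list and no result comes from a test. Depth at each region is unknown, so a gap without H3K4me1 or Runx3 says only that no region was listed there.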
